A study of Mus musculus with 60 samples.

Results

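The genes described here are 6 transcripts linked with glutamate release and with thalamic neurons: Slc17a6, Slc17a7, Rora, Tcf7l2, Prkcd and Plcb4. They were picked by symbol from 13986 genes measured in the hippocampus of stressed mice, and each had 1 entry in every one of the 10 tables of comparisons that the authors deposited. The choice was made with values of these data in view, namely the group means and the opposite shifts after Swim in dorsal and ventral tissue, so the dorsal and ventral Swim values are given as a description and without a test. The means of the other groups were in view too, so tests on those groups are not fully independent of the choice. Poly(A)-enriched RNA came from wild-type C57BL/6 mice at postnatal day 105, in 60 libraries that form 12 groups of 5. The groups combine whole, dorsal or ventral hippocampus with Homecage, Handling, Restraint or Swim, and tissue was taken 45 minutes after the treatment. Homecage is the reference group of each region, and no transgene or drug is named in the labels. The means of a group summed to 19.9M to 25.0M estimated counts (M, mega). Group means and the authors' test results were the data used here, and levels are therefore given without a spread between mice. The authors' test is not given in the sources used here, so which error its p-value carries could not be checked. Whether the 5 libraries of a dorsal group came from the same mice as those of the ventral group is not given in the labels.

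Glutamate is loaded into synaptic vesicles by vesicular glutamate transporters, which use the proton gradient built by the vacuolar ATPase. Slc17a7 encodes VGLUT1, the main form in pyramidal and granule cells of the hippocampus and in the neocortex, while Slc17a6 encodes VGLUT2, the main form in thalamus, hypothalamus and brainstem, also found in the subiculum. Rora encodes the nuclear receptor RORα, which acts on the circadian clock and is strongly expressed in thalamus and Purkinje cells. Tcf7l2 encodes a transcription factor at the end of the Wnt pathway that marks thalamic and habenular neurons. Prkcd encodes protein kinase C delta and Plcb4 encodes phospholipase C beta 4, an effector of Gq-coupled receptors, and both are abundant in thalamic relay nuclei.

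All 6 are protein-coding genes, placed here on GRCm38 with GENCODE M21. Slc17a6 lies on the plus strand at chr7:51622006-51671119, and Slc17a7 lies on the same chromosome and strand at chr7:45163949-45176142. Rora covers chr9:68653786-69388246 on the plus strand, Plcb4 covers chr2:135659011-136014593 on the plus strand, Tcf7l2 covers chr19:55741820-55933654 on the plus strand, and Prkcd covers chr14:30595354-30626210 on the minus strand. Exon bases add up to 5.40 kb for Slc17a6 and 5.39 kb for Slc17a7, so the 2 transporters can be compared almost directly. RefSeq (GRCm38.p6) gives 10 transcription starts for the 6 genes, with windows of 300 bases each that run from 250 bases before to 50 after the start. The first start of 4 genes is printed below, because Slc17a6, Rora and Plcb4 shifted one way and Slc17a7 the other way after Swim. Capitals mark the GC box, GGGCGG on either strand (CCGCCC where it lies on the other strand), with overlapping matches counted.
Slc17a6, chr7:51621580-51621879, plus strand: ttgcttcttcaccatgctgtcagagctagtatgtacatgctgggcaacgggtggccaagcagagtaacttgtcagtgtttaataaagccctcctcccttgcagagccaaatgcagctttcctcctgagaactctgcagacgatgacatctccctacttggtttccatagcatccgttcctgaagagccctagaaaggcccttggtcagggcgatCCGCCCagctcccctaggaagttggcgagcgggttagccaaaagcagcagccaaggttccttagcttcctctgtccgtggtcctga
Slc17a7, chr7:45163671-45163970, plus strand: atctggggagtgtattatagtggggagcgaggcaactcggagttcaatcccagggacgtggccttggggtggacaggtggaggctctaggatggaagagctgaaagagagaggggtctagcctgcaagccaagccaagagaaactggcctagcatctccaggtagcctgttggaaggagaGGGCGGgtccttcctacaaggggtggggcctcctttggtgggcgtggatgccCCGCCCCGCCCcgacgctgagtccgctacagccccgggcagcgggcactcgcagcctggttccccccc
Rora, chr9:68653536-68653835, plus strand: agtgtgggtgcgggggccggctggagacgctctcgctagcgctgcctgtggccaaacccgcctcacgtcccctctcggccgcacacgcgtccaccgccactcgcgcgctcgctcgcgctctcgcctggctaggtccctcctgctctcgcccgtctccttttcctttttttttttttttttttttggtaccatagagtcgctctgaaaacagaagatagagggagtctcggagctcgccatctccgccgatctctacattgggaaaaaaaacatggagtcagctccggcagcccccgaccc
Plcb4, chr2:135659297-135659596, plus strand: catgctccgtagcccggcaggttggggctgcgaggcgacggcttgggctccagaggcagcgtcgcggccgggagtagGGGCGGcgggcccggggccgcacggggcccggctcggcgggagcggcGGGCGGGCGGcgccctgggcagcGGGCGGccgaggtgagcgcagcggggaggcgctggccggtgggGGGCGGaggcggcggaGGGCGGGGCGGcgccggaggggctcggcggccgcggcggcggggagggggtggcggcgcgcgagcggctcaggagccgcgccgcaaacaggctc
These windows held 1 GC box in Slc17a6, 3 in Slc17a7, 0 in Rora and 7 in Plcb4, and 35.7% of 32851 mouse promoter windows of this length hold at least 1. Their GC content was 53.7% in Slc17a6, 63.7% in Slc17a7, 60.3% in Rora and 84.0% in Plcb4, against a median of 52.7% over all windows. Of the 10 windows, 5 held a GC box. None of the 10 held the ROR half-site AGGTCA (in 16.3% of all windows), the TCF/LEF core ATCAAAG (3.73%), the cAMP response element TGACGTCA (1.79%), the AP-1 site TGANTCA (7.81%) or the EGR site GCGTGGGCG (0.612%), searched on both strands. Only these letters in these windows were searched, and a match is no measure of binding.

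Levels are given as CPM, the authors' deposited group mean of a gene scaled to a common total over all genes, with 95% intervals that cover counting error only. Per kilobase of exon, Slc17a7 was the most abundant of the 6 in all 12 groups, at 202.3 to 249.9 CPM per kilobase. Without the length its levels lay between 1091.0 CPM in whole Handling and 1347.7 CPM in dorsal Homecage, a range of 1.24-fold. Dorsal hippocampus had 1347.7 CPM of Slc17a7 in Homecage, 1271.1 in Handling, 1223.9 in Restraint and 1202.8 in Swim. Ventral hippocampus had 1198.8 CPM in Homecage, 1234.5 in Handling, 1274.6 in Restraint and 1325.5 in Swim. Dorsal tissue was thus above ventral tissue in Homecage and Handling and below it in Restraint and Swim, and whole hippocampus stayed lower, at 1091.0 to 1134.2 CPM, in all 4 conditions. Slc17a6 was far scarcer, at 2.18 to 5.36 CPM per kilobase. In ventral tissue it stood at 29.0 CPM (28.0 to 29.9) in Homecage, 24.7 (23.9 to 25.7) in Handling, 22.2 (21.4 to 23.0) in Restraint and 20.8 (20.0 to 21.7) in Swim. Dorsal tissue had 11.8 CPM of Slc17a6 (11.2 to 12.4) in Homecage, 11.9 (11.3 to 12.5) in Handling, 12.9 (12.3 to 13.6) in Restraint and 18.8 (18.0 to 19.6) in Swim. Dorsal Swim was the highest of the 4 dorsal groups and ventral Homecage the highest of the 4 ventral groups. In whole hippocampus Slc17a6 ran from 19.5 CPM in Restraint to 22.1 CPM in Swim, and the whole groups lay in the middle of the order beside ventral Swim.

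Per kilobase of exon, Slc17a7 exceeded Slc17a6 by 114.4 times in dorsal Homecage and by 41.4 times in ventral Homecage. The ratio was 107.2 in dorsal Handling, 94.8 in dorsal Restraint and 64.0 in dorsal Swim. On the ventral side it was 49.9 in Handling, 57.5 in Restraint and 63.7 in Swim. After Swim the 2 regions thus held the transporters in nearly the same proportion, while whole hippocampus kept a ratio between 51.3 and 58.3 in its 4 conditions. As a share of the 3 vesicular glutamate transporters per kilobase, Slc17a6 made up 0.861% in dorsal Homecage, 1.53% in dorsal Swim, 2.35% in ventral Homecage and 1.54% in ventral Swim. Slc17a8, which encodes VGLUT3 and was not chosen, was found at 7.10 to 7.44 CPM in the 4 dorsal groups and at 3.41 to 3.85 CPM in the 4 ventral groups. Its levels kept to region and hardly moved with condition.

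Rora was also highest in ventral Homecage, at 48.4 CPM (47.2 to 49.6). Its other ventral levels were 43.3 CPM in Handling, 44.7 in Restraint and 38.6 in Swim, and its dorsal levels were 28.8 CPM in Homecage, 29.4 in Handling, 32.7 in Restraint and 33.5 in Swim. All 4 ventral groups stayed above all 4 dorsal groups, with whole hippocampus (34.5 to 36.9 CPM) in between. Plcb4 had the same 2 ends, ventral Homecage at 32.8 CPM and dorsal Homecage at 21.0 CPM. Its ventral levels were 31.2 CPM in Handling, 29.8 in Restraint and 27.0 in Swim, and its dorsal levels were 21.0 CPM in Handling, 23.9 in Restraint and 25.9 in Swim. The counting intervals of ventral Swim (26.1 to 28.0) and dorsal Swim (25.0 to 26.9) overlapped, so the regions could not be ordered there. Tcf7l2 was the scarcest of the 6 per kilobase, at 0.406 to 0.796 CPM per kilobase. Its CPM levels were 3.56 to 3.93 in dorsal groups and 3.76 to 4.53 in whole groups. In ventral tissue Tcf7l2 was at 5.09 CPM in Homecage, 4.75 in Handling, 6.98 in Restraint and 3.76 in Swim. The ventral Restraint value stood above the other 11 groups by more than counting error, and the other groups formed a chain of overlapping intervals. Prkcd went the other way by region. It was at 32.7 to 35.8 CPM in the 4 dorsal groups, 19.0 to 20.6 CPM in the 4 whole groups and 12.9 to 16.0 CPM in the 4 ventral groups, with no overlap between regions.

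**Figure D1:**
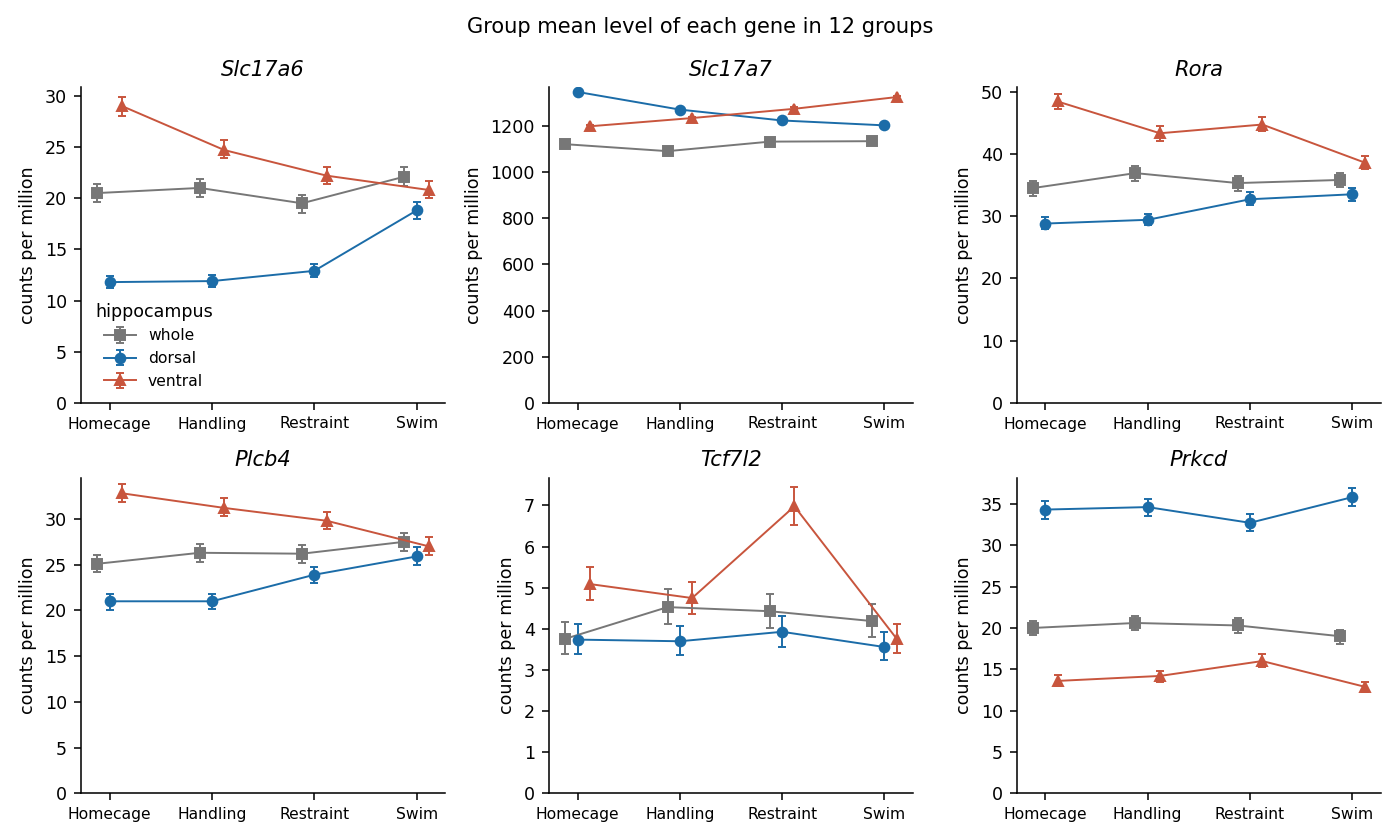
Level of each of the 6 genes in CPM (vertical axis, from 0) in Homecage, Handling, Restraint and Swim (horizontal axis) for whole, dorsal and ventral hippocampus. Points are the group means of 5 libraries and bars are 95% counting intervals, not spread between mice. Slc17a6, Rora and Plcb4 are far apart between regions in Homecage and close together in Swim, where Slc17a6 is at 20.8 in ventral and 18.8 in dorsal tissue.

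Of the tested comparisons, the regional one in Homecage mice was the only one in which any of these genes passed. In the authors' deposited table of ventral against dorsal Homecage tissue, 5 of the 6 genes passed an adjusted p of 0.05, with 3 higher in ventral and 2 higher in dorsal tissue, beside 38.4% of all genes measured. Slc17a6 was 2.38-fold higher in ventral tissue, a log2 difference of 1.25 ± 0.12 in the authors' deposited table (adjusted p 5.5e-24), where ± is the standard error implied by the deposited p-value. Rora followed with 0.71 ± 0.09 (7.3e-13) and Plcb4 with 0.62 ± 0.10 (1.6e-09) in the authors' deposited table. Prkcd was lower in ventral tissue by 1.36 ± 0.19 on the log2 scale (value -1.36, adjusted p 1.9e-11, authors' deposited table), and its direction is opposite to that of the 3 genes with which it shares thalamic expression. Slc17a7 was slightly lower in ventral tissue, at -0.21 ± 0.06 (adjusted p 0.00329, authors' deposited table), and this call ended once its trend with GC content had been taken out, at -0.07 with an adjusted p of 0.446. Tcf7l2 at 0.42 ± 0.25 did not pass (adjusted p 0.180, authors' deposited table), with an interval from -0.07 to 0.91. The median absolute difference was 0.66 over the 6 genes and 0.16 over all genes. The means of both Homecage groups were in view when the genes were picked. Their libraries are also the reference of the Swim values used for the choice, so this comparison is not fully independent of it. In bulk tissue, fewer cells of a type and less RNA per cell cannot be told apart.

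After Swim, the values that chose the genes were as follows. In the authors' deposited table for dorsal Swim, Slc17a6 had a log2 fold change of 0.66 ± 0.15, which is 1.58-fold, Plcb4 had 0.31 ± 0.09 and Rora had 0.21 ± 0.08. Prkcd at 0.06 ± 0.10 and Tcf7l2 at -0.09 ± 0.16 were within 1 implied standard error of 0 in the authors' deposited table, and Slc17a7 was at -0.17 ± 0.06. In ventral Swim the authors' deposited table gave -0.47 ± 0.11 for Slc17a6, which is 0.720-fold, -0.33 ± 0.09 for Rora, -0.28 ± 0.08 for Plcb4, -0.46 ± 0.24 for Tcf7l2 and -0.09 ± 0.20 for Prkcd. Slc17a7 was at 0.15 ± 0.05 there, again opposite to Slc17a6 in the authors' deposited table. Over all genes, 0.447% passed the authors' adjusted p of 0.05 in dorsal Swim and 6.94% in ventral Swim. The ventral minus dorsal difference was -1.14 for Slc17a6, -0.59 for Plcb4, -0.54 for Rora, -0.37 for Tcf7l2, -0.15 for Prkcd and 0.32 for Slc17a7 on the log2 scale. Slc17a8 was at -0.03 ± 0.15 in dorsal and -0.14 ± 0.15 in ventral Swim in the authors' deposited table.

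Swim in whole hippocampus was measured in libraries of its own and was tested, although its group means were also in view when the genes were picked. In that authors' deposited table, 0 of the 6 genes passed (0 also at an unadjusted p of 0.05), beside 0.395% of all genes. Slc17a6 was at 0.12 ± 0.10 (interval -0.08 to 0.32, adjusted p 0.819, authors' deposited table), a value that lies between its dorsal and ventral ones. Plcb4 was at 0.14 ± 0.09 and Slc17a7 at 0.03 ± 0.06 in the authors' deposited table, and the 6 genes ran from -0.06 to 0.17.

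**Figure D2:**
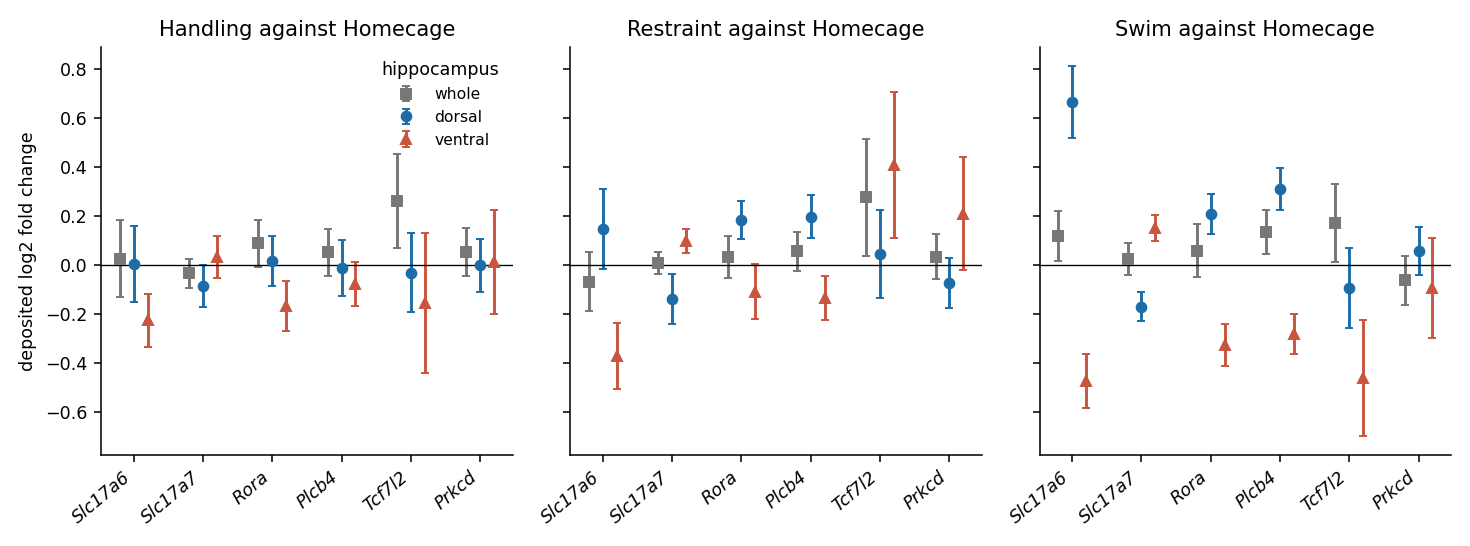
Log2 fold change of each gene against Homecage (vertical axis) in the authors' deposited tables, for Handling, Restraint and Swim in whole, dorsal and ventral hippocampus. Bars are 1 standard error implied by the deposited p-value. In Swim, Slc17a6 is at 0.66 in dorsal, -0.47 in ventral and 0.12 in whole tissue, and the values for Handling lie mostly within 1 bar of 0.

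Handling and Restraint did not move any of the 6 genes past the authors' adjusted p of 0.05 in any region. The shares of all genes that passed were 0.395% in whole Handling, 0.125% in dorsal Handling, 0.856% in ventral Handling, 0.541% in whole Restraint, 0.616% in dorsal Restraint and 2.39% in ventral Restraint. At an unadjusted p of 0.05, the authors' deposited tables held 0 of 6 genes in whole Handling, dorsal Handling and whole Restraint, 1 in ventral Handling, 2 in dorsal Restraint and 2 in ventral Restraint. Slc17a6 had the lowest adjusted p of the 6 in ventral Restraint, at -0.37 ± 0.14 (interval -0.64 to -0.10, adjusted p 0.140, authors' deposited table). It was at -0.23 ± 0.11 in ventral Handling (adjusted p 0.620), 0.15 ± 0.16 in dorsal Restraint (0.894) and 0.00 ± 0.15 in dorsal Handling (1.000) in the authors' deposited tables. In dorsal Restraint, the authors' deposited table held 0.20 ± 0.09 for Plcb4 (adjusted p 0.382) and 0.19 ± 0.08 for Rora (0.357). Slc17a7 stood at 0.10 ± 0.05 in ventral Restraint (0.378) and at -0.14 ± 0.10 in dorsal Restraint (0.784) in the authors' deposited tables. Tcf7l2 had the widest errors, with 0.41 ± 0.30 in ventral Restraint (0.633, authors' deposited table), so the high CPM of that group did not pass against ventral Homecage. These values share their Homecage libraries with the Swim values of the same region, and their group means were in view when the genes were picked.

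The difference between the ventral and the dorsal response was tested for Handling and Restraint from the deposited values, with a normal approximation and Benjamini-Hochberg adjustment over all genes in both tables. For Handling, 0.0889% of 13500 genes passed and none of the 6 did (0 at an unadjusted p of 0.05), all at an adjusted p of 0.998. For Restraint, 1.98% of 13516 genes passed, none of the 6 did, and 4 of the 6 had an unadjusted p below 0.05. Their ventral minus dorsal differences were -0.33 ± 0.12 for Plcb4 (adjusted p 0.154), -0.52 ± 0.21 for Slc17a6 (0.219), -0.29 ± 0.14 for Rora (0.304) and 0.24 ± 0.11 for Slc17a7 (0.336). The interval for Slc17a6 ran from -0.93 to -0.10, and that for Prkcd, at 0.28, ran from -0.21 to 0.77.

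Seen as a regional gap, the ventral to dorsal ratio of Slc17a6 was 2.46-fold in Homecage, 2.08-fold in Handling, 1.72-fold in Restraint and 1.11-fold in Swim. On the log2 scale of CPM these gaps are 1.30, 1.06, 0.78 and 0.15. The gap of Rora was 0.75 in Homecage, 0.56 in Handling, 0.45 in Restraint and 0.20 in Swim, and that of Plcb4 was 0.65, 0.57, 0.32 and 0.06 in the same order. Prkcd kept its dorsal bias, with gaps of -1.33 in Homecage, -1.29 in Handling, -1.03 in Restraint and -1.47 in Swim. Slc17a7 passed from -0.17 in Homecage through -0.04 in Handling and 0.06 in Restraint to 0.14 in Swim. Tcf7l2 had gaps of 0.45, 0.36, 0.83 and 0.08. Genes that passed the Homecage comparison with a log2 difference of at least 0.5 kept a median of 86.7% of their Homecage gap in Handling (1611 genes), 74.6% in Restraint (1624 genes) and 71.0% in Swim (1638 genes). Because those genes were taken for a wide Homecage gap, such shares tend to fall below 100%. Slc17a6 kept 81.8% in Handling and 60.2% in Restraint, where 42.3% and 33.4% of those genes kept less. Its share in Swim, 11.5%, and those of Rora (27.2%) and Plcb4 (9.24%) are part of the values that chose the genes, so no rank is given for them. These gaps are ratios of group means, and the gaps of treated groups were not tested.

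**Figure D3:**
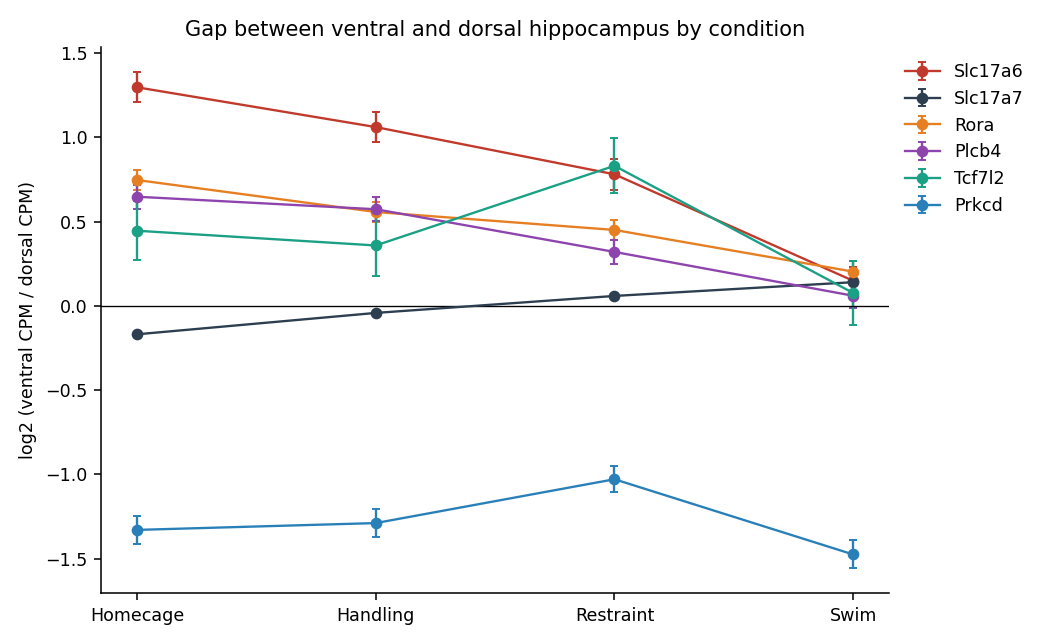
Log2 ratio of ventral to dorsal CPM (vertical axis) for each gene in 4 conditions (horizontal axis). Bars are 95% counting intervals of the group means. Slc17a6 goes from 1.30 in Homecage to 0.15 in Swim and Plcb4 from 0.65 to 0.06, while Prkcd stays between -1.03 and -1.47.

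Transcript GC content moved with these shifts and is given beside them. Slc17a6 transcripts have 45.2% GC, Rora 44.5% and Plcb4 45.0%, below the lower quartile of all genes (45.7%), while Slc17a7 has 56.6%, above the upper quartile (54.9%). Prkcd has 52.8% and Tcf7l2 49.1%, nearer to the median of 50.3%. Across genes, which are not independent replicates, log2 fold change and GC content had a Spearman rho of -0.60 in dorsal Swim, 0.70 in ventral Swim, -0.47 in dorsal Restraint, 0.39 in ventral Restraint, 0.45 in ventral Handling and -0.37 in the regional Homecage table. With the trend subtracted, Slc17a6 stood at 0.60 in dorsal and -0.40 in ventral Swim, Plcb4 at 0.24 and -0.20, and Rora at 0.14 and -0.24. Slc17a7 stood at -0.08 in dorsal and 0.05 in ventral Swim, within 2 implied standard errors of 0 on both sides, and the dorsal value of Rora also came to lie within 2 of its errors of 0. The number of genes called in ventral Swim went from 955 to 110 after the subtraction. The subtraction thus took a small part of the Slc17a6 values, part of the Rora and Plcb4 values in dorsal and ventral Swim and the larger part of the Slc17a7 values.

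**Figure D4:**
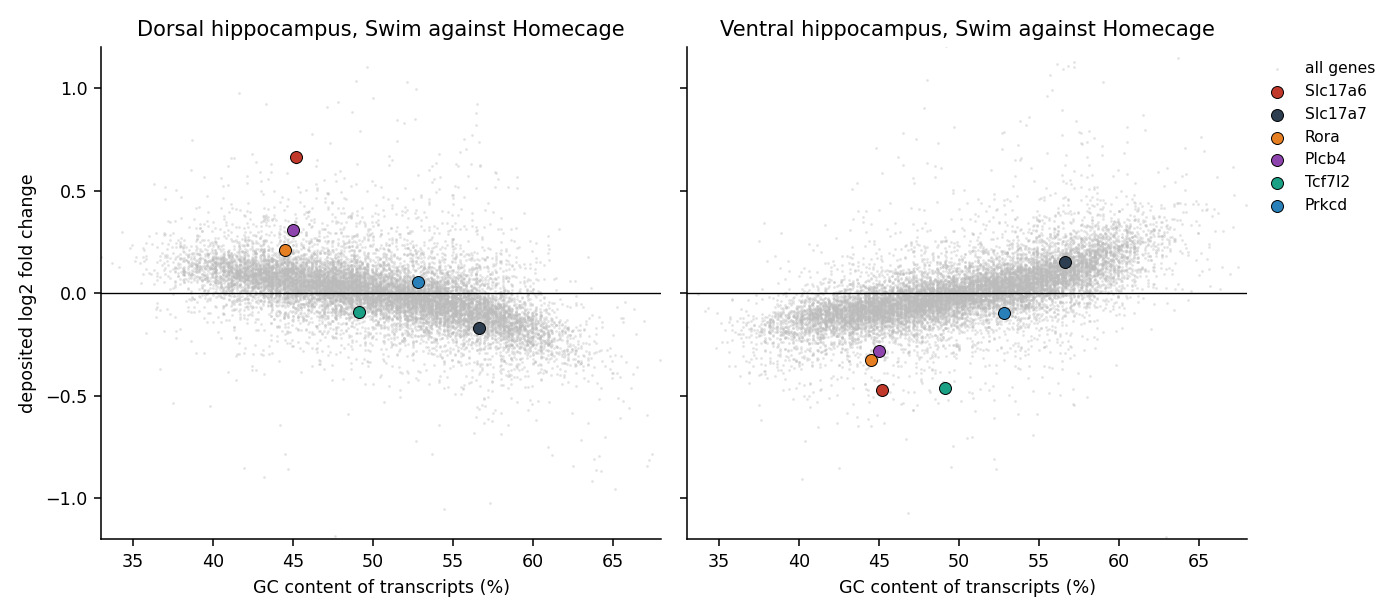
Log2 fold change after Swim in the authors' deposited tables (vertical axis) against GC content of each gene's transcripts in percent (horizontal axis), for dorsal and ventral hippocampus. Grey points are the 13504 genes with a value in both tables, of which 31 lie outside the axes, and coloured points are the 6 genes. The grey cloud slopes down in dorsal and up in ventral tissue, Slc17a7 is at -0.17 and 0.15, and Slc17a6 is at 0.66 and -0.47, with grey points further out in both panels.

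Genes of the pathways around the members were read from lists chosen with earlier results of these data known. In the regional Homecage table, whose share of genes passed was 38.4%, the vacuolar ATPase subunits that energise vesicles were higher in ventral tissue in 5 of 17 cases and lower in none. The authors' deposited table gives 0.39 for Atp6ap2, an accessory subunit, 0.23 for Atp6v1b2, 0.22 for Atp6v1h and 0.24 for Atp6v1a, with a list median of 0.08 beside -0.01 over all genes. In the glutamate cycle 4 of 13 were higher and 2 lower in ventral tissue, among them Slc38a1, a glutamine transporter, at 0.35 and Slc7a11, the cystine-glutamate exchanger, at 0.65 in the authors' deposited table. Of 7 other vesicle transporters and SV2 proteins measured, 3 were higher and 2 lower, with the vesicle protein Sv2b at 0.69 and its relative Sv2c at -0.42 in the authors' deposited table. Slc17a8 itself was lower in ventral tissue by 0.98 on the log2 scale (value -0.98, adjusted p 5.8e-10, authors' deposited table).

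The relatives of the other members were read in the same regional Homecage table, where 38.4% of all genes passed. List medians were -0.055 for the clock list, -0.007 for the Wnt list, -0.07 for protein kinase C and -0.005 for Gq signalling, beside -0.007 over all genes. Among the ROR and REV-ERB receptors and clock genes, 3 of 15 were higher and 6 lower in ventral Homecage tissue. Npas2, a partner of BMAL1, was higher by 1.09, and the period genes Per2 and Per3 were both lower by 0.61 (values of -0.61) in the authors' deposited table. Of the TCF/LEF factors and Wnt targets, 4 of 14 were higher and 3 lower, led by Nkd2, an inhibitor of Wnt signalling, at 1.36 and Lgr5, an R-spondin receptor, at 1.13 in the authors' deposited table. Of the protein kinase C genes, 4 of 9 passed as lower in ventral tissue and none as higher, 2 of the 9 had a positive value, and the share that passed is near that of all genes. Besides Prkcd they included Prkce at -0.36 and Prkca at -0.42 in the authors' deposited table. In Gq and phospholipase C beta signalling, 5 of 16 were higher and 5 lower. The authors' deposited table gives -1.08 for Dgkz, a diacylglycerol kinase, and 0.68 for Rgs4, a brake on Gq.

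After the treatments few genes of these lists passed. Per1, a clock gene that glucocorticoids induce, passed in 6 of the 9 authors' deposited tables of a treatment, among them ventral Handling at 0.56 and ventral Restraint at 0.50, while Rora was at -0.17 and -0.11 there. Per2 rose by 0.41 in ventral Handling and by 0.25 in ventral Restraint in the authors' deposited tables. In the glutamate cycle 1 gene passed, Slc38a2, a glutamine transporter, at 0.23 in dorsal Restraint in the authors' deposited table. Nkd2 rose by 0.31 in ventral Restraint and by 0.25 in ventral Swim in the authors' deposited tables. In ventral Swim, Dgkz at 0.21 also passed in the authors' deposited table, where Prkcd stood at -0.09 and Plcb4 at -0.28.

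The thalamic label was checked with 15 further thalamic markers. Of these, Shox2 and Gbx2, which define thalamic neurons early, had no entry in any comparison. In the regional Homecage table, 7 of 13 measured markers were higher in ventral tissue and 1 lower, beside 38.4% of all genes that passed. Their median was 0.41 beside -0.01 over all genes. Calb2, calretinin, had 2.43, Rgs16 0.90, Ntng1, the axon guidance protein netrin G1, 0.77 and Cacna1g, a T-type calcium channel, 0.41 in the authors' deposited table, and the lower one was Plekhg1 at -0.66, named after its value was seen. The summed level of the list was 440.3 CPM in dorsal Homecage, 441.0 in dorsal Swim, 523.6 in ventral Homecage and 518.6 in ventral Swim, close to level within each region. The most abundant gene of the list was Adarb1, an RNA-editing enzyme named after its value was seen, at 224.9 CPM in dorsal Homecage, 230.3 in dorsal Swim, 215.6 in ventral Homecage and 214.2 in ventral Swim. In ventral Swim 3 of 13 passed as lower and 1 as higher, beside 6.94% of all genes. The lower ones were Slitrk6 at -1.02, Synpo2 at -0.47 and Ntng1 at -0.22 in the authors' deposited table. Slitrk6 was scarce, with mean counts of 32.0 in ventral Homecage and 15.6 in ventral Swim. Cacna1g passed as higher at 0.21, from 111.1 to 128.2 CPM. The ventral Swim median was -0.22 beside -0.01 over all genes, with 3 of 13 values positive and 6 of 13 at an unadjusted p of 0.05. The trend with GC content was left in these list values. In dorsal Swim, 0 of 12 passed in the authors' deposited table (2 at an unadjusted p of 0.05), beside 0.447% of all genes. The median there was 0.02, and Slitrk6 had no value. Of 8 habenular markers, 3 were measured (Tac2, Nwd2 and Lrrc55). The other 5, among them the defining gene Pou4f1, had no entry in any comparison. Prkcd ran against Slc17a6 by region, and the further markers stood on the side of Slc17a6 in ventral Swim by their median but not in dorsal Swim, so the 6 genes are called by their own names.

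Markers of neighbouring tissue also moved with region, and their part in the values above was not tested. The counts for the regional Homecage table stand beside 38.4% of all genes that passed there in either direction. Subicular markers were higher in ventral Homecage tissue in 6 of 7 cases, led by Dlk1 at 4.22, Tpbg at 2.06 and Gpr101 at 1.96, and only Bcl6 was lower, at -0.65, in the authors' deposited table. Their summed level was 164.4 CPM in dorsal Homecage, 187.6 in dorsal Swim, 244.6 in ventral Homecage and 244.3 in ventral Swim. Neocortical layer markers were higher in 9 of 12 cases and lower in 1, with Tshz2 at 1.64 and Etv1 at 0.86 in the authors' deposited table. Their summed level was 392.1 CPM in dorsal Homecage and 448.4 in dorsal Swim, and 610.9 CPM in ventral Homecage and 564.6 in ventral Swim, higher and lower on the same sides as Slc17a6. In ventral Swim 1 of 12 neocortical markers passed, as higher, beside 6.94% of all genes. It was Fezf2, a deep-layer transcription factor, at 0.21 in the authors' deposited table, and it had the only positive value of the list. The list median was -0.12 beside -0.01 over all genes, and the lowest value was -0.51, with the GC trend left in. Before adjustment, 6 of the 12 p-values were below the threshold. Tshz2 alone went from 135.7 to 113.2 CPM. In dorsal Swim 1 of 7 subicular, 1 of 12 neocortical and 1 of 10 oligodendrocyte markers passed, beside 0.447% of all genes. They were the subicular peptide gene Nts at 0.57, Etv1 at 0.33 and the myelin gene Mobp at 0.29 in the authors' deposited table. Values were positive for 5 of 7, 11 of 12 and 10 of 10 markers of these lists. The regional gap of Nts went from 0.68 in Homecage to -0.08 in Swim, while that of Dlk1 was 4.25 and 4.53. Dentate granule cell markers were lower in ventral tissue in 7 of 8 cases, led by Lct at -2.94 and Dsp at -2.10 in the authors' deposited table. The gap of Lct was -2.92 in Homecage and -2.82 in Swim, and that of Dsp was -2.06 and -1.96. Other gaps narrowed, that of C1ql2 from -1.54 to -0.70 and that of Plk5 from -2.06 to -1.38. In ventral Swim, 2 of 8 dentate markers passed as higher and 0 as lower, beside 6.94% of all genes. They were C1ql2 and Plk5, both at 0.42 in the authors' deposited table. Oligodendrocyte markers were lower in ventral Homecage tissue in all 10 cases, with Mag at -0.79 and Mbp at -0.69 in the authors' deposited table. Choroid plexus markers passed as higher in several tables, with Ttr at 5.39 in ventral Handling and 4.94 in dorsal Restraint in the authors' deposited tables, and none of the 6 genes passed in these.

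Correlations over the 12 group means are a description only, because the genes were chosen on those same means, Swim included, and because the groups share region and treatment effects. Slc17a6 had a Pearson r of 0.95 with Plcb4 and 0.89 with Rora on log2 CPM, and Rora and Plcb4 had 0.97. Prkcd ran against Slc17a6 with -0.85, Tcf7l2 had 0.54 and Slc17a7 had -0.41. With each region centred on its own mean, which leaves the Swim shifts in, Slc17a6 had 0.89 with Plcb4 and 0.76 with Rora, had 0.09 with Prkcd and had -0.77 with Slc17a7. Among 13127 genes with at least 1 CPM in every group, those most like Slc17a6 were Agpat9 (0.978), Pak1 (0.978) and Zmat4 (0.975). The nearest genes were Tesk1 (0.988), Ccdc97 (0.985) and Ehmt2 (0.983) for Slc17a7, and Pik3r1 (0.985), Zfp184 (0.979) and Lsamp (0.974) for Rora. For Prkcd they were Sema5a (0.995), Cdh8 (0.994) and Atp2b1 (0.994), and for Plcb4 they were Csgalnact1 (0.972), Rora (0.966) and Dlg1 (0.961). Tcf7l2 had weaker neighbours in Rab13 (0.819), Serpinb6a (0.816) and Rab23 (0.806). Of these 18 names, 1 was found again over the 8 dorsal and ventral groups and 0 after centring within regions, so the names depend on the groups used.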

How the data were processed

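Poly(A)-enriched RNA of 60 hippocampal libraries in 12 groups of 5 was compared by the authors in 10 deposited tables. The columns, per the file headers, are the authors' mean estimated count of either group, their fold (a ratio with the authors' scaling), its log2 value, a p-value and an adjusted p-value. Bowtie 0.12.2 and the assembly mm8 are listed without a role in the submitters' processing notes. The counting program is not given in the sources used here, nor is the test. Recomputed Benjamini-Hochberg values matched the deposited adjusted p. Dropping 144 to 148 repeated entries left 13610 to 13784 genes per table, and the smallest sum of both means was 22.0.

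The 6 genes and 20 gene lists were chosen with earlier results of these data known. Calls are the authors', at an adjusted p of 0.05. The planned form of the tests was kept, and no value of a single library entered, so intervals on levels cover counting error only. The labels do not say that libraries of a group came from separate mice, although the series text gives 5 mice per condition.

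CPM used the total of each group's means. Standard errors are approximate: each is the size of the log2 fold change divided by the normal deviate of its p-value. The ventral minus dorsal difference used both errors and ignored any pairing of regions. That step was tested on simulated data. Those data were drawn from normal errors of the implied size and without pairing, so they could not test the implied errors or a pairing of regions. Exon length and GC content came from GENCODE M21 (GRCm38), with a value for 99.8% of genes, and promoters from RefSeq (GRCm38.p6). The GC trend was a lowess with a fraction of 0.3. Likeness was a Pearson correlation of log2 CPM (pseudocount 0.5, at least 1 CPM in every group). Named genes are the 6 members, up to 4 genes per list and comparison with the lowest adjusted p, and the 3 genes most like each member, with exceptions marked in the text; some items the rule names are not reported here. Alternatives were adjusted p thresholds of 0.01 and 0.1, total-count and median-ratio scaling, GC subtraction, a minimum mean of 100 counts and errors from a t distribution with 8 degrees of freedom. Python 3.11.15, pandas 2.3.3, SciPy 1.17.1 and statsmodels 0.14.6 were used.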

Additional observations from a re-analysis of the deposited data

How the results depend on the processing

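Of 270 values of single members recomputed under an alternative, 267 kept their direction and their side of the threshold or moved by less than the implied error. The other 3 concern Slc17a7 with the GC trend subtracted, at -0.08 in dorsal Swim, 0.05 in ventral Swim and -0.07 in the regional Homecage table, where the adjusted p became 0.446. The alternatives in threshold and minimum count kept each deposited log2 value and could change only a call. Only total-count scaling and GC subtraction could move a value, so the count of unchanged values overstates how far the values were put to a test. The genes most like each member shared 1 of 18 names with the 8-group version and 0 with the centred one.

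Median-ratio scaling in place of CPM moved Slc17a7 by more than counting error, to a log2 range of 0.29 over the groups and to ventral to dorsal gaps of -0.078 in Handling, 0.037 in Restraint and 0.12 in Swim, with no change of sign. With the GC trend subtracted, 1 list gene was called in dorsal Handling in place of 0. Total-count scaling shifted the regional Homecage table by a median of 0.04 on the log2 scale, and that alternative ended no call of a member.

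No paired analysis was possible because the columns hold group means and carry no replicate numbers. For the same reason leaving out each replicate was not run. Implied errors up to 0.30 for Tcf7l2 limit what could be seen in that gene. With a minimum mean of 100 counts, Tcf7l2 had no value in the whole and dorsal tables.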
